A study of Mus musculus with 6 samples.

Results

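The report concerns 10 genes of lytic cell death in mouse stomach corpus: the gasdermins Gsdma, Gsdmc2, Gsdmc4 and Gsdmd, the caspases Casp1, Casp4 and Casp8, the adaptor Pycard, and the necroptosis genes Ripk3 and Mlkl. They were taken by gene name from a table of 18708 rows, in which all 10 were found. Each of the 6 libraries was made from the whole corpus of 1 mouse at an age of 6 months, on the C57BL/6 strain. In 3 mice RUNX3, a transcription factor, was wild type (WT), and 3 had its R122C form. The sources used here do not give zygosity, sex or strandedness, and the Y-linked Ddx3y exceeded 0.5 FPKM in 1 library of each group, WT 3 and R122C 2. Values are FPKM, fragments scaled by transcript length and library total.

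Gasdermins are pore-forming proteins held inactive until a protease cuts them, after which the freed end inserts into the plasma membrane and the cell bursts, a death called pyroptosis. Inflammasomes are sensor complexes that recruit caspase-1 through the adaptor ASC, the product of Pycard. Caspase-11, the product of mouse Casp4, instead binds bacterial lipopolysaccharide in the cytosol, and both caspases cut gasdermin D. In necroptosis the kinase RIPK3 phosphorylates MLKL, which permeabilises the membrane, and caspase-8 restrains this route.

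In R122C corpus Gsdmd and Casp4 rose, and none of the other 8 genes passed the test in either direction. Of all 11422 rows with a mean of at least 1 FPKM, 602 (5.27%) were higher and 95 (0.832%) lower at a limma adjusted p of at most 0.05. Of the 10 genes, 2 were higher and 0 lower, and 7 had an unadjusted p under 0.05, where 20.1% of tested rows did. For 5 genes all R122C values lay above all WT values (Gsdmd, Casp1, Casp4, Casp8 and Mlkl), where 20.3% of tested rows did so. All 10 were among the tested rows, but Casp1 and Casp4 reached the mean of 1 FPKM only through the R122C libraries. Their separation, their positive differences and the Casp4 call are thus partly a condition of entry. With no filter Casp4 did not pass (limma adjusted p = 0.0697). The median log2 difference was 1.12 for the 10 genes and 0.10 for all tested rows. The genes were chosen with earlier results of these data known, so these counts describe them and test nothing about the group. The split of calls over all rows depended on scaling, with 86.4% of calls higher as deposited, 68.6% after median-of-ratios scaling and 62.2% after quantile normalization, and the median of all rows moved from 0.10 to -0.004 and -0.06. After rescaling to a common total it was 0.29, with 94.3% of calls higher.

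**Figure D1:**
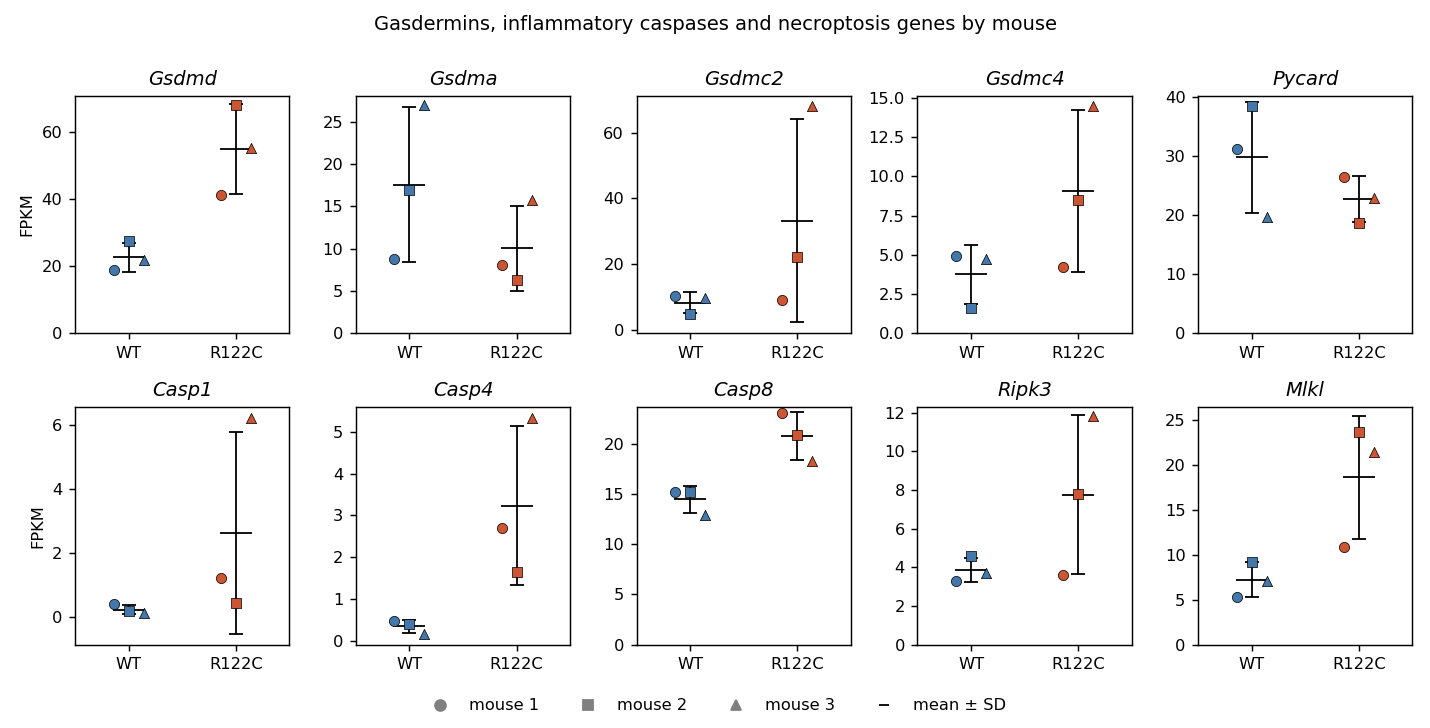
FPKM of each gene (y axis, linear) in 3 WT and 3 R122C mice, with the mean and SD as black bars. A symbol stands for the mouse number within its group, and equal symbols in both groups are not known to mark paired animals. Gsdmd lies between 18.96 and 27.37 FPKM in WT and between 41.24 and 68.2 in R122C, while for Casp1 a single R122C mouse at 6.24 FPKM sets the mean.

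Gasdermin D, the substrate shared by the inflammatory caspases, measured 18.96, 27.37 and 21.77 FPKM in the mice WT 1, WT 2 and WT 3. In R122C mice 1, 2 and 3 it was at 41.24, 68.2 and 55.22 FPKM. Every R122C mouse lay above every WT mouse. The means were 22.7 ± 4.28 and 54.9 ± 13.5 FPKM (SD, n = 3), a ratio of 2.42, and the log2 difference was 1.22 ± 0.23 (SE, limma adjusted p = 0.0192). Gsdmd lies on chromosome 15 (mm10, 75862327 to 75867408, on the plus strand, with at most 11 exons in an annotated transcript), and no 50-base stretch of its transcripts occurs in another annotated gene. The call did not hold after median-of-ratios scaling (0.0734) or quantile normalization (0.0522), nor without WT 1 (0.0575), WT 3 (0.0661) or R122C 2 (0.084), and over the 18 alternatives its adjusted p ran from 0.0016 to 0.084.

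Gsdma, a gasdermin of skin and upper digestive epithelium, did not pass and had a negative difference. It was at 8.8, 16.97 and 27.02 FPKM in the WT mice and at 8.1, 6.32 and 15.75 in R122C mice 1, 2 and 3. The groups overlapped, with WT 1 below R122C 3. The log2 difference was -0.71 (95% interval of the fit -1.67 to 0.24, adjusted p = 0.398). Gsdma (chromosome 11, 98664351 to 98677708, plus strand) neighbours Gsdma2, the gasdermin of highest level in this tissue, with means of 1272 ± 407 FPKM for WT and 738 ± 210 for R122C (SD, n = 3). Gsdma2 did not pass either (log2 difference -0.77, interval -1.51 to -0.04, adjusted p = 0.225), with R122C 1 at 947.92 FPKM above WT 1 at 851.8. Of the 50-base stretches in Gsdma transcripts, 8.3% recur in Gsdma2 or Gsdma3, and Gsdma2 exceeded Gsdma 33.5- to 117-fold within a library, so a misassigned part of Gsdma2 reads could weigh on the Gsdma value. That part was not tested.

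The Gsdmc genes form a cluster on chromosome 15, minus strand, with Gsdmc2 at 63824346 to 63845177 and Gsdmc4 at 63891264 to 63912297. In mouse intestine they are known as epithelial genes induced by type 2 cytokines. Gsdmc2 was at 10.33, 4.74 and 9.83 FPKM in WT and at 9.16, 22.23 and 67.96 in R122C mice 1, 2 and 3. R122C 1 lay within the WT range, R122C 2 above it and R122C 3 far above all others. The log2 difference of 1.51 did not pass (interval 0.11 to 2.91, adjusted p = 0.213), but did without R122C 1 (2.17, adjusted p = 0.0453), and without R122C 3 it was 0.79. Gsdmc4 had the same order of R122C mice, at 4.95, 1.61 and 4.74 FPKM in WT and 4.21, 8.47 and 14.51 in R122C, with a difference of 1.03 (interval 0.02 to 2.05, adjusted p = 0.239).

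These genes resemble each other closely, and the sources used here do not say how reads that match several genes were counted, so a shared part in their values was not tested. The coding sequences of Gsdmc2 and Gsdmc4, each of 1440 bases, are 93.8% identical over aligned bases, and Gsdmc2 and Gsdmc3 97.1%. Of the 50-base stretches in annotated Gsdmc2 transcripts 51.3% recur in another Gsdmc gene, and of those of Gsdmc4 39.0%. The longest identical coding run of Gsdmc2 and Gsdmc4 spans 171 bases. The last 30 bases of it and the 30 that follow (coding bases 660 to 719 in both, GENCODE M21 transcripts, 5′ to 3′) are shown because the genes are identical over the first part and differ from each other in the second. The other Gsdmc genes were not compared over this window. Capitals mark the 12 bases that differ.
Gsdmc2: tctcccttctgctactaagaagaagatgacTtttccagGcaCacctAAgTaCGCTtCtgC
Gsdmc4: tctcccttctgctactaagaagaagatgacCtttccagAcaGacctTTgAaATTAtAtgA

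The other 2 genes of the cluster had different levels. Gsdmc3 was at 0.74 to 1.98 FPKM in WT and at 1.69, 1.77 and 4.16 in the R122C mice (adjusted p = 0.448). Gsdmc was at or under 0.02 FPKM in every WT mouse, at 0.37 and 0.03 in R122C 1 and R122C 2, and at 7.55 in R122C 3 (adjusted p = 0.397). R122C 3 was thus highest for each of the 4 Gsdmc genes, and for Gsdmc it was the only library above 1 FPKM.

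R122C 3 also carried transcripts of squamous epithelium, the type that lines the neighbouring forestomach. Where they came from was not tested. The summed level of 13 squamous markers was 1.18 to 14.5 FPKM in WT, 23.7 in R122C 1, 54.9 in R122C 2 and 1083 in R122C 3, and none of the 13 was at 0 in all libraries. In R122C 3 the basal keratin genes Krt5 and Krt14 reached 42.9 and 63.3 FPKM, and no other library exceeded 1.7 for either. The part of squamous tissue in the Gsdmc values of R122C 3 was not tested. In R122C 2, where Gsdmc2 was also above every WT mouse, Krt5 and Krt14 were at 1.19 and 0.97 FPKM, within their WT ranges. Of the 13 markers 9 were tested and 1 passed, Krt13 (log2 difference 4.48, limma adjusted p = 0.043). Krt13 was at 0.32 to 3.77 FPKM in WT and at 9.17, 49.64 and 300.87 in R122C mice 1, 2 and 3.

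**Figure D2:**
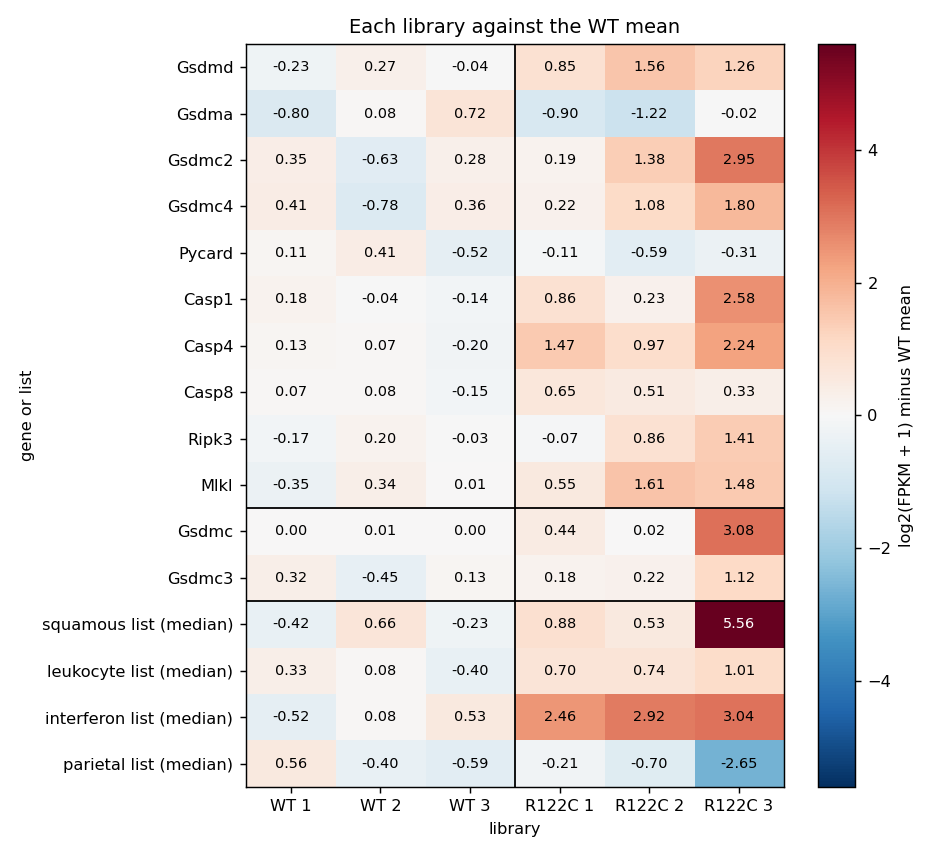
Log2(FPKM + 1) minus the WT mean for each library (columns), for the 10 genes, the other Gsdmc genes and the medians of 4 marker lists (rows), with red above and blue below the WT mean. Gsdmd, Gsdmc2, Gsdmc4, Casp1, Casp4, Casp8 and Mlkl are above the WT mean in all 3 R122C libraries, and the Gsdmc genes, Casp1, Casp4 and Ripk3 are highest in R122C 3, where the squamous median is 5.56 and the parietal median -2.65.

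Pycard encodes ASC, which links inflammasome sensors to caspase-1. It was at 31.19, 38.43 and 19.72 FPKM in WT and 26.52, 18.73 and 22.91 in R122C mice 1, 2 and 3, with overlapping groups. The difference of -0.34 did not pass (interval -0.94 to 0.26, adjusted p = 0.534). An annotated transcript on the opposite strand, Gm45205, overlaps a Pycard exon, and without known strandedness its reads cannot be told apart from those of Pycard.

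Casp4, the gene of caspase-11, rose from a very low level. It was at 0.47, 0.41 and 0.17 FPKM in the WT mice and at 2.71, 1.64 and 5.34 in R122C mice 1, 2 and 3. The lowest R122C value was above the highest WT value. The means were 0.35 ± 0.159 and 3.23 ± 1.9 FPKM (SD, n = 3), a ratio of 9.23, and the log2 difference, compressed at this level by the added 1 FPKM, was 1.56 ± 0.33 (SE, limma adjusted p = 0.0295). With a pseudocount of 0.1 FPKM it was 2.8 (adjusted p = 0.0202). The call held without R122C 2 (0.027) and R122C 3 (0.0303), but not without WT 1 (0.0589), WT 2 (0.105), WT 3 (0.0962) or R122C 1 (0.055), with no filter (0.0697) or after median-of-ratios scaling (0.0598) or quantile normalization (0.0606).

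The Casp4 promoter is shown because the gene passed the test and its window holds matches to a searched motif. RefSeq promoter windows (GRCm38.p6, 250 bases before to 50 after the start) were available for 6 of the 10 genes. They were searched on both strands for GAAANNGAAA, the core of interferon-stimulated response elements, for TTCNNNGAA, the core of STAT sites, and for GGGNNNTTCC, a form of the NF-kB site, the last chosen after the windows had been read. Of 32851 windows of this length, 3.44%, 8.3% and 5.56% hold them. Among the 6 genes the first and second were found in 0, and the third in Casp4 alone, at 3 non-overlapping places in capitals below (chr9:5308599-5308898, plus strand, 5′ to 3′). A match is a description of letters and no evidence of binding, and a window without one says nothing of the factor.
Casp4: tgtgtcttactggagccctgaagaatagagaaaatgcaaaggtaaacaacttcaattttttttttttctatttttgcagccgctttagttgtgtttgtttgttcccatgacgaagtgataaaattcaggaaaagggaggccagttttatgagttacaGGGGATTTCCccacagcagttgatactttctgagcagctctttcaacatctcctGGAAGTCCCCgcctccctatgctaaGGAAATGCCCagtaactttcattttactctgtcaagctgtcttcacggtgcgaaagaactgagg

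Casp1, the neighbouring gene (chromosome 9, 5298517 to 5307265, plus strand), had no passing difference. It was at 0.38, 0.18 and 0.1 FPKM in WT and 1.2, 0.42 and 6.24 in R122C mice 1, 2 and 3. The groups did not overlap, but R122C 2 lay just above WT 1. The log2 difference was 1.22 (interval 0.01 to 2.43, adjusted p = 0.243). At an estimated 31600000 fragments in WT 3 and 39800000 in R122C 2, these levels correspond to about 4.73 and 25 fragments, against about 302 in R122C 3. Without R122C 3 Casp1 fell under the filter and had no test.

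Casp8, the initiator caspase of death receptors, was at 15.22, 15.24 and 12.9 FPKM in WT and 23.11, 20.88 and 18.33 in R122C. All R122C mice were above all WT mice, by a small margin. The ratio of means was 1.44 and the log2 difference 0.49 (interval 0.09 to 0.90), which did not pass (adjusted p = 0.162) except after rescaling to a common total (0.0387) or with array weights (0.0295).

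Mlkl, the executioner of necroptosis, was at 5.31, 9.22 and 7.11 FPKM in WT and 10.83, 23.64 and 21.43 in R122C mice 1, 2 and 3. The groups did not overlap, and R122C 1 was close to WT 2. The means were 7.21 ± 1.96 and 18.6 ± 6.85 FPKM (SD, n = 3), and the log2 difference of 1.21 ± 0.31 (SE) missed the threshold (adjusted p = 0.0587). It was past it in 5 of 18 alternatives, among them robust eBayes (0.0495), the replicate block (0.0112) and the fit without R122C 1 (1.54, adjusted p = 0.0125), the R122C mouse nearest to WT. Among the others the adjusted p was 0.122 with no filter, 0.147 after median-of-ratios scaling, 0.144 after quantile normalization and 0.221 without R122C 2.

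Ripk3, which phosphorylates MLKL, was at 3.3, 4.56 and 3.72 FPKM in WT and 3.61, 7.79 and 11.86 in R122C. R122C 1 lay among the WT mice and the other two above them. The difference of 0.74 did not pass (interval -0.06 to 1.54, adjusted p = 0.29), and without R122C 1 it was 1.14 (adjusted p = 0.0352). R122C 1 was also the lowest of the R122C mice for Gsdmd, Gsdmc2, Gsdmc4 and Mlkl, but the highest for Casp8 and Pycard.

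**Figure D3:**
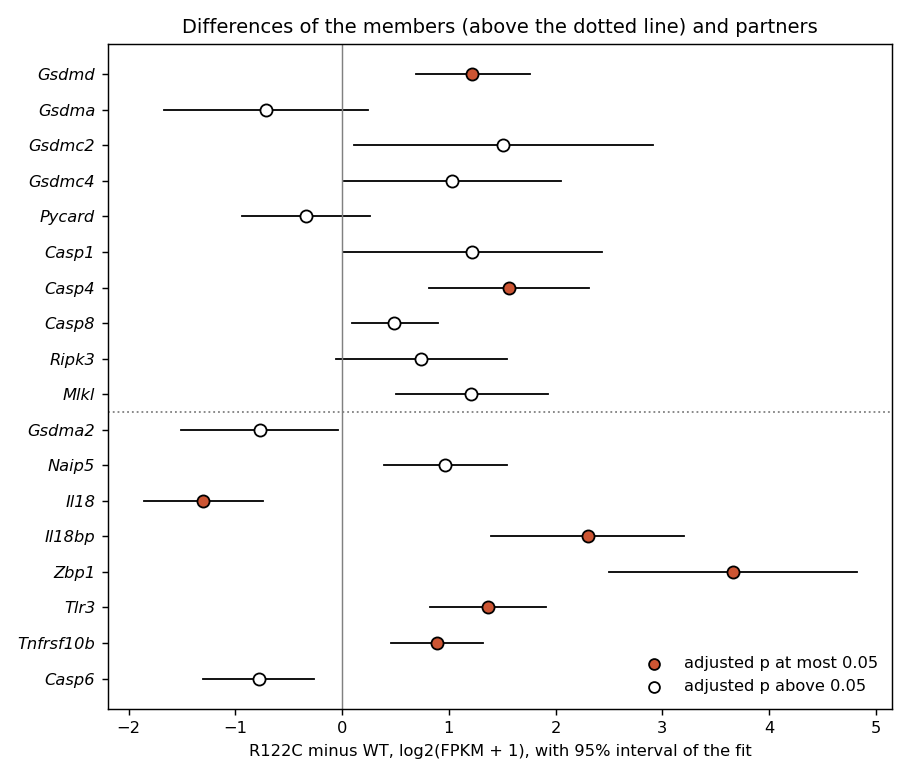
Log2 difference, R122C minus WT (x axis), of the 10 genes and of 8 partners with the 95% interval of the limma fit as lines, filled points having an adjusted p of at most 0.05. Gsdmd and Casp4 are filled among the 10, at 1.22 and 1.56, and intervals that exclude 0 beside open points belong to genes that did not pass adjustment over 11422 rows. Casp4 reached the mean of 1 FPKM needed for testing only through the R122C libraries.

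The levels per length ordered the 10 genes in WT as Pycard, Gsdmd, Gsdma, Casp8, Gsdmc2, Mlkl, Ripk3, Gsdmc4, Casp4 and Casp1, from 29.8 ± 9.43 FPKM for Pycard to 0.22 ± 0.144 for Casp1 (SD, n = 3). The WT ranges of neighbours in that order overlapped, except between Casp8 and Gsdmc2, Mlkl and Ripk3, and Gsdmc4 and Casp4. In R122C the means ran from 54.9 FPKM for Gsdmd to 2.62 for Casp1. Gsdmd lay above Pycard in all 3 R122C mice, and below it in WT 1 and WT 2.

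Upstream of necroptosis, 2 sensors and a death receptor rose, and the shared scaffold genes did not pass. Of 18 further genes of necroptosis and death receptor signalling 15 were tested, 3 of them rising, 0 falling and 12 missing the threshold (median log2 difference 0.22). The 3 make 20% of those tested, where 5.27% of all tested rows were higher. The list was chosen with earlier results of these data known, so this share is a description. Zbp1, a sensor of Z-form nucleic acid that binds RIPK3, was at 1.24, 2.7 and 6.35 FPKM in WT and 24.06, 67.34 and 71.52 in R122C. The lowest R122C mouse was well above the highest WT mouse. Its log2 difference was 3.66 ± 0.51 (SE, adjusted p = 0.00484), and it passed in each of the 18 alternatives (up to 0.033).

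Tlr3, a receptor for double-stranded RNA that can engage RIPK3 through its adaptor, was at 3.97, 2.18 and 3.5 FPKM in WT and 9.98, 7.86 and 11.6 in R122C. It rose by 1.37 ± 0.24 on the log2 scale (adjusted p = 0.014, and 0.065 without WT 2, its only alternative above the threshold). Tnfrsf10b, the receptor of the death ligand TRAIL, rose by 0.89 ± 0.19 (adjusted p = 0.0305), from 2.37 ± 0.144 to 5.26 ± 0.656 FPKM (SD, n = 3), but missed the threshold in each of the 6 fits that left out 1 library (adjusted p 0.0516 to 0.136). It also missed the threshold with no filter (0.073) and after median-of-ratios scaling (0.0516) or quantile normalization (0.0706). Of 17 alternatives it passed in 7. The scaffold genes Ripk1 and Fadd and the caspase-8 inhibitor Cflar had differences of 0.11, 0.30 and 0.13, with intervals of -0.40 to 0.62, -0.21 to 0.80 and -0.50 to 0.76.

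**Figure D4:**
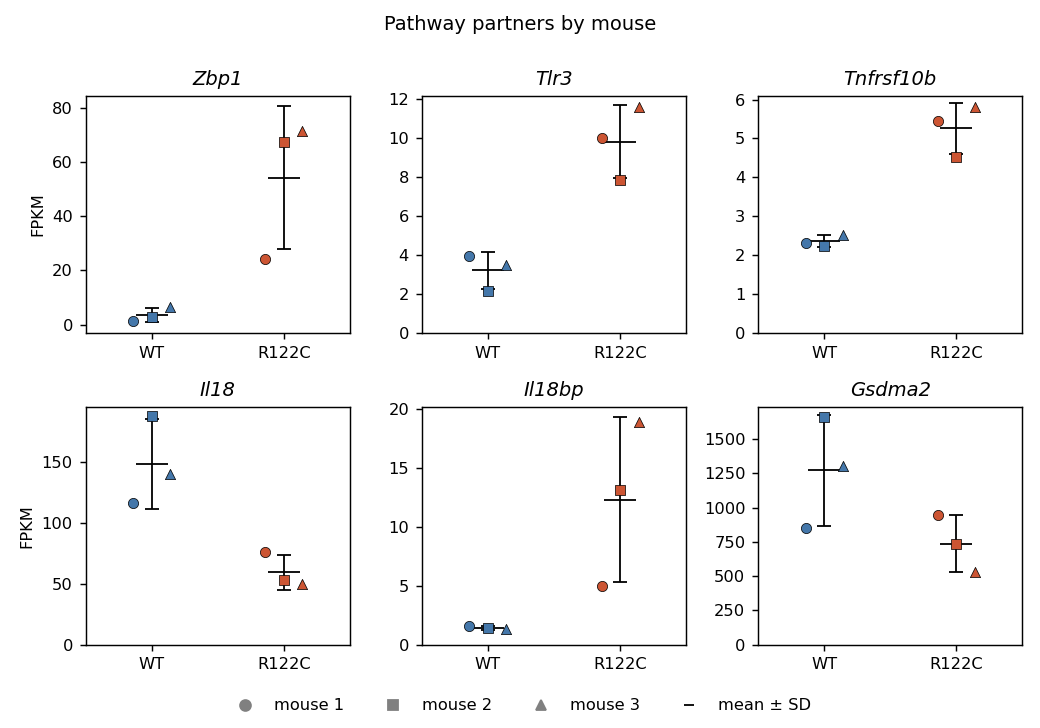
FPKM (y axis, linear) of 6 partners in 3 WT and 3 R122C mice, with the mean and SD as black bars and symbols for the mouse number within a group. The groups do not overlap for Zbp1, Tlr3, Tnfrsf10b, Il18 and Il18bp, with Il18 lower in R122C, and overlap for Gsdma2.

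Among the cytokines that inflammasomes mature, Il18 fell and its soluble antagonist rose. Of 10 genes of interleukin-1 and interleukin-18 signalling 5 were tested, of which 1 rose, 1 fell and 3 did not pass. Over all tested rows 5.27% were higher and 0.832% lower. Il18, which epithelium makes constitutively, was at 115.78, 188.01 and 140.34 FPKM in WT and 75.93, 52.7 and 49.8 in R122C, with all R122C mice below all WT mice. It fell by 1.30 on the log2 scale (SE 0.25, adjusted p = 0.0191), and did not pass with no filter (0.0505) nor without WT 2 (0.0848), WT 3 (0.056) or R122C 2 (0.088). Il18bp, the binding protein that neutralises interleukin-18, was at 1.57, 1.37 and 1.3 FPKM in WT and 4.94, 13.08 and 18.86 in R122C. It rose by 2.30 ± 0.40 on the log2 scale (adjusted p = 0.0137). The call was lost with no filter (2.30, adjusted p = 0.0559), without WT 2 (2.28, 0.0633) and without R122C 2 (2.17, 0.0579), with the difference close to that of all libraries. Il1b stayed under the filter, at 0.18 to 0.59 FPKM in WT and 0.56 to 1.96 in R122C.

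Inflammasome sensors and regulators, taken as 1 list, were mostly too low to test. Of 20 listed genes 8 were tested, of which 0 passed, with a median log2 difference of -0.02 over sensors and regulators together. In every library 10 were under 1 FPKM, among them Nlrp3 and Aim2. In the same fit 2 had an unadjusted p under 0.05, Naip5 and the regulator Txnip. Txnip was at 227.28 to 395.91 FPKM in WT and lower, at 123.99 to 205.36, in R122C (log2 difference -0.85, limma adjusted p = 0.117). The smallest p belonged to Naip5, a sensor of bacterial flagellin, at 0.18 to 0.72 FPKM in WT and 1.49 to 2.43 in R122C (adjusted p = 0.0632), which passed in 4 of 16 alternatives. Naip5 too reached the mean of 1 FPKM only through the R122C libraries. Nlrc4, the adaptor of that sensor, was at 8.95 to 12.1 FPKM in WT and 6.64 to 12.71 in R122C, with overlapping groups. The other tested Naip genes, Naip2 and Naip6, had higher means than Naip5 and overlapped between the groups. Their log2 differences were 0.27 and -0.07 (limma adjusted p = 0.536 and 0.94).

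Of the 7 other gasdermins and rupture genes 4 were tested and 0 passed (median log2 difference 0.43, and 1 with an unadjusted p under 0.05), the smallest p being that of Gsdma2. Among 20 genes of mitochondrial and executioner apoptosis, all tested, 0 passed, with a median of 0.18 and 4 at an unadjusted p under 0.05. The smallest p was that of Casp6, an executioner caspase, at 153.23, 113.29 and 134.7 FPKM in WT and 96.19, 79.67 and 59.39 in R122C (log2 difference -0.78, interval -1.30 to -0.26, adjusted p = 0.0884). Casp6 did pass after median-of-ratios scaling (0.0314) or quantile normalization (0.0456), with array weights (0.0237) and with the replicate block (0.0455).

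Over the 6 libraries, the centred log2 profiles nearest to that of Gsdmd, by Euclidean distance among 11420 other gene names, were those of Fhl2 (0.18), Srm (0.24), Nmi (0.25), 1810055G02Rik (0.31) and Plscr1 (0.32). Fhl2 encodes a LIM-domain protein, Srm spermidine synthase, Nmi a protein induced by interferon, and Plscr1 a phospholipid scramblase induced by interferon. Fhl2, the nearest, was at 29.75, 46.21 and 35.47 FPKM in WT and 75.48, 108.46 and 89.11 in R122C, with the same order of mice in each group as Gsdmd. This likeness rests on 6 points in 2 groups and is a description.

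**Figure D5:**
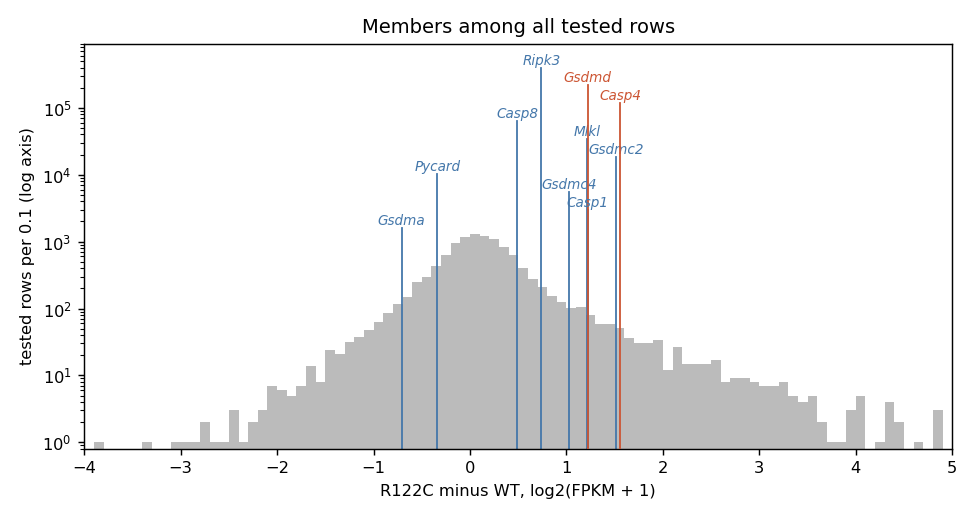
Number of tested rows (y axis, log) by log2 difference, R122C minus WT (x axis, bins of 0.1), with the 10 genes as vertical lines, red for those past the threshold. Of the rows, 16 lie outside the axis of -4 to 5. Casp4 stands at rank 364 and Gsdmd at rank 566 of 11422 by size of the positive difference. The added 1 FPKM compresses the difference of Casp4 and so bears on its rank.

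Transcripts of the interferon response and of leukocytes were read beside the 10 genes. Of 13 interferon response genes 12 rose (median log2 difference 2.81) and their summed level was 50.4 to 176 FPKM in WT and 626 to 1310 in R122C. Of 15 leukocyte markers 6 were tested and 0 passed, although all 6 differences were positive and 3 had an unadjusted p under 0.05, and the summed level was 21.7 to 59.7 FPKM in WT and 60.7 to 71.6 in R122C. Lyz2 weighed heavily in that sum, at 6.58 to 38.89 FPKM in WT and 11.83 to 31.8 in R122C (log2 difference 0.22). The differences of Tyrobp and Fcer1g were larger, at 1.02 and 1.22 (limma adjusted p = 0.0601 and 0.0703). Ptprc, the pan-leukocyte CD45, was at 0.34 to 1.12 FPKM in WT and 1.19 to 1.98 in R122C, and Cd68 of macrophages at 2.89 to 6.16 and 4.51 to 12.25. The part of leukocytes, squamous tissue or the interferon response in the values of the 10 genes was not tested.

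In whole tissue, fewer cells of a type and less RNA per cell cannot be told apart. Corpus markers were present in all libraries, with Atp4a of parietal cells at 1961.57 to 3617.48 FPKM in WT and 326.09 to 2229 in R122C, and Pgc of chief cells at 30427.49 to 97962.24 and 1537.34 to 24625.08. The lowest values of both were in R122C 3. Atp4b, the other proton pump subunit gene, overlapped between the groups, at 2156.31 to 4253.69 FPKM in WT and 529.32 to 2594.39 in R122C. Pga5, a second pepsinogen gene of chief cells, did not follow Pgc, with 26.32 to 75.19 FPKM in WT and 45.12 to 143.33 in R122C, and neither passed the test (log2 difference 0.81, adjusted p = 0.393 for Pga5, and -2.79, adjusted p = 0.143 for Pgc). Muc5ac of pit cells was at 853.37 to 1641.91 FPKM in WT and 148.95 to 285.15 in R122C, and Muc6 of mucous neck cells at 11.61 to 60.88 and 537.02 to 1027.73 (adjusted p = 0.00312 and 0.00347). The second gene of each list was Tff1, at 39245.69 to 99192.44 FPKM in WT and 26512.56 to 35916.16 in R122C (adjusted p = 0.249), and Tff2, at 3096 to 4858.87 and 15114.92 to 20656.44 (adjusted p = 0.00741). The part of these differences in the values of the 10 genes was not tested. Smooth muscle markers summed to 586 to 1036 FPKM in WT and 648 to 754 in R122C, with Acta2 at 119.07 to 166.54 and 145.61 to 194.45 and Myh11 at 40.76 to 104.02 and 37.88 to 71.01. Without R122C 3, Gsdmd (1.21, adjusted p = 0.0249) and Casp4 (1.22, adjusted p = 0.0303) kept their calls. Each of these calls was lost when some of the other libraries were left out singly, as given above. The Muc5ac and Muc6 differences were present in every R122C mouse, so leaving out R122C 3 does not test their part. It does not test that of the interferon list either, whose sum was at least 626 FPKM in every R122C mouse and at most 176 in WT. Squamous transcripts were also not confined to R122C 3. Their sum was 23.7 FPKM in R122C 1 and 54.9 in R122C 2, against at most 14.5 in WT, so their part was not tested by this fit.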

How the data were processed

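RNA of whole corpus tissue was measured in 6 libraries, 3 per group. The deposited table holds FPKM values computed by the authors; the submitters' processing notes name STAR, featureCounts and mm10 with no version or setting, and the sources used here do not say how counts became FPKM. Library sums ran from 581276 to 716992 FPKM. Depth, read from the spacing of low values in genes with 1 annotated transcript, was about 31600000 to 39800000 fragments in 4 libraries and could not be settled in 2, so no counting interval is given.

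Rows with a mean of at least 1 FPKM (11422) were tested as log2(FPKM + 1), which understates changes of low genes, with limma 3.58.1 in R 4.3.3 (trended empirical Bayes, two-sided, no covariate, Benjamini-Hochberg over all tested rows, threshold 0.05), checked on simulated data. In 26 rows a spreadsheet date replaces the gene name. Positions and transcripts are from GENCODE M21 (GRCm38, as mm10), promoters from RefSeq.

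The genes, lists and naming rule were chosen with earlier results of these data known. All 10 genes are named, then of each pathway list the genes past the threshold (at most 6) or that of smallest p, the first 2 of each marker list, and the 5 profiles nearest to Gsdmd. Other genes were chosen after their values were seen. Some genes that this rule names are not reported here. Alternatives were pseudocounts of 0.1 and 0.5, no filter, a mean of 5 FPKM, 3 scalings, 2 eBayes settings, array weights (gene-by-gene), the replicate block, and each library left out. A covariate for Y-linked transcripts was added after seeing the data.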

Additional observations from a re-analysis of the deposited data

How the results depend on the processing

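The 10 genes gave 2 higher and 0 lower. The higher count was 1 with no filter and with a mean of 5 FPKM, 0 with median-of-ratios scaling and with quantile normalization, 4 after rescaling to a common total and 6 with array weights, where 1 was lower (Gsdma). Leaving out 1 library in turn gave 0 to 4 higher, with 0 without WT 1 or WT 3, 1 without WT 2 or R122C 2 and 4 without R122C 1. None of the 10 log2 differences changed sign in any alternative in which the gene was tested.

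Over all tested rows 602 were higher and 95 lower. A mean of 5 FPKM gave 392 and 57. Median-of-ratios scaling and quantile normalization gave 191 and 257 lower, and rescaling to a common total 1260 higher. Array weights gave 2006 and 639, and the covariate for Y-linked transcripts, added after seeing the data, 62 lower. Without 1 library the counts were 246 to 581 higher and 14 to 195 lower. The 10 highest rows of each library held 45.3 to 46.2% of its summed FPKM in WT and 24.5 to 29.1% in R122C. The cause of the shifts in the counts was not tested.

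The replicate numbers are not known to pair animals. The correlations of deviations from the group mean for equal numbers were 0.47, 0.02 and 0.37, and WT 2 correlated better with R122C 3 (0.11) than with its own number. With the replicate block 1119 rows were higher and 259 lower, and Mlkl and Casp6 passed. Over the other single genes, Tff1, which was not called, turned from -1.16 to 0.27 under quantile normalization. Depth was unsettled in 2 libraries, and the WT level of Casp1 rests on few fragments.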

Other observations

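Within a library the FPKM of Il18 exceeded that of its antagonist Il18bp by 73.7-, 137- and 108-fold in WT 1, WT 2 and WT 3, and by 15.4-, 4.03- and 2.64-fold in R122C 1, R122C 2 and R122C 3. The pair was chosen after its values were seen, and no test was made. The ratio of Gsdmc2 to Gsdmc4 was 2.07 to 2.94 in WT, 2.18 and 2.62 in R122C 1 and R122C 2, and 4.68 in R122C 3, so these similar genes did not keep 1 ratio across libraries. Casp14, a caspase of cornifying epithelium that no list held, reached 5.46 FPKM in R122C 3 and no more than 0.02 in any other library. Nlrp10, under the filter, reached 2.08 FPKM in R122C 3 and no more than 0.44 elsewhere. Of the remaining inflammasome genes, Il18r1, a receptor chain for interleukin-18, was at 2.84, 3.85 and 2.06 FPKM in WT and 6.56, 5.77 and 6.27 in R122C, with a log2 difference of 0.90 ± 0.22 (SE) that missed the threshold (limma adjusted p = 0.0505).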
